A study of Mus musculus with 2 samples.

Results

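The interferon-induced genes Isg15, Bst2, Ly6a, Ifi44, Ifi208, Iigp1, Gbp2 and Ubd and the interferon-induced chemokine gene Cxcl9 were followed through the endothelial cells of the mouse adrenal gland. These 9 genes, of 54838 in the deposited matrices, were taken by symbol, and each had 1 row in both libraries. All 9 had at least 50 UMIs (unique molecular identifiers, each counting 1 captured transcript) summed over the endothelial cells of both libraries, as did 12287 genes in all. The genes were chosen for their levels by vessel class, their occurrence in the same cells and their difference between genotypes in these libraries, so all of these are given as a description and without a test.

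The libraries came, 1 each, from mice with the genotype that the labels call VEGF/LysM and from wild-type (WT) mice. All were female and 12 weeks old, and the stated aim concerned the influence of VEGF-A from macrophages on adrenal endothelial diversity. The glands were minced, digested in the cold with a bacterial protease and sorted for viable CD31+ CD45- cells, a gate against leukocytes, and the libraries were made on the 10x Genomics platform. LysM is the lysozyme M gene Lyz2 of macrophages and neutrophils, whose promoter commonly drives Cre in these cells. The allele behind VEGF/LysM, the number of mice per library and any pooling were not given in the sources used here. Because each genotype has 1 library, a difference between genotypes cannot be told apart from a difference between the libraries, so no p-value is given and intervals cover counting error only.

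Interferons are secreted proteins that cells release on sensing viral or microbial nucleic acids or on immune activation. Type I interferons signal through the receptor subunits Ifnar1 and Ifnar2 and act on genes with interferon-stimulated response elements, whereas interferon-gamma, the type II interferon, signals through Ifngr1 and Ifngr2 and acts on genes with gamma-activated sites. Endothelial cells respond to both, and their induced genes include antiviral effectors, GTPases that attack pathogen vacuoles, antigen presentation genes and chemokines that draw T cells and NK cells.

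The promoters of the genes are shown because both binding motifs are defined by sequence. Entries of the RefSeq promoter table (GRCm38.p6) were searched for 7 of the 9 genes, all but Ly6a and Iigp1. Each entry of 300 bases, from 250 before to 50 after the gene start, was searched on both strands for GAAA, any 2 bases and GAAA (the response element) and for TTC, any 3 bases and GAA (the gamma-activated site). The first motif was found in 3.44% and the second in 8.30% of the 32851 promoters of that length, and in at least 1 promoter of 3.99% and 9.55% of the 27025 genes with an entry. The response element letters were present in 4 of the 7 genes, Bst2, Isg15, Ifi208 and Gbp2, and the gamma-activated site letters in 1, Bst2. Neither was found for Cxcl9, Ubd or Ifi44, which says only that these letters are not in this window. The 250 bases before the start, 5′ to 3′ on the gene's strand with matches in capitals, are given for the 4 genes with a match and for Cxcl9, which was concentrated in capillary-like cells.
Isg15: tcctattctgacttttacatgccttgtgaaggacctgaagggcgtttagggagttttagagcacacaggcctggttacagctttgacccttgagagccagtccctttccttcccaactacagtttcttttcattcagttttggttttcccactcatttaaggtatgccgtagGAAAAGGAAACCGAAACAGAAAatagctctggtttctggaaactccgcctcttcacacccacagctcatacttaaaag
Bst2: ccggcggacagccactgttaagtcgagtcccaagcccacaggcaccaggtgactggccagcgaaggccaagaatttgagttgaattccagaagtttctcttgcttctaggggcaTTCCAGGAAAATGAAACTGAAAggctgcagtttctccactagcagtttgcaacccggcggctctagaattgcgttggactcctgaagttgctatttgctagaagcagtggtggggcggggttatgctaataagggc
Gbp2: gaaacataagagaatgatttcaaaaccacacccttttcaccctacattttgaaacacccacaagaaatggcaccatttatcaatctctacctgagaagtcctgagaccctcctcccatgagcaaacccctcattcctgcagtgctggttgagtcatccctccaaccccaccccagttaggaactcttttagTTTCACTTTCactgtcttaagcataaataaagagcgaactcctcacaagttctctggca
Ifi208: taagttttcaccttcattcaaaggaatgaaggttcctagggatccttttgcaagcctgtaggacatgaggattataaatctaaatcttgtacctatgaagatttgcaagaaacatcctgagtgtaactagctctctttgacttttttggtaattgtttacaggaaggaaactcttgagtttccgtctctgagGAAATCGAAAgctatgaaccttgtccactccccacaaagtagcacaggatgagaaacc
Cxcl9: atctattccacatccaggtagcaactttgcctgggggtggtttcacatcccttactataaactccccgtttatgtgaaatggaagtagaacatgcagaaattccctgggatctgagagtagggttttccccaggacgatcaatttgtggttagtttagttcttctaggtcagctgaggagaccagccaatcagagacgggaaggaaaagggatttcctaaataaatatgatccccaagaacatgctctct
The windows were chr4:156200819-156201068 (minus strand) for Isg15, chr8:71537473-71537722 (minus strand) for Bst2, chr3:142620413-142620662 (plus strand) for Gbp2, chr1:173673415-173673664 (plus strand) for Ifi208 and chr5:92328080-92328329 (minus strand) for Cxcl9. The capitals of Isg15 begin 78 bases before the start and hold 3 overlapping matches, GAAAAGGAAA, GAAACCGAAA and GAAACAGAAA. The capitals of Bst2 begin 136 bases before the start with the gamma-activated site letters TTCCAGGAA, which overlap the response element letters GAAAATGAAA and, after them, GAAACTGAAA. In Gbp2 the single match TTTCACTTTC, on the opposite strand, lies 59 bases before the start, and in Ifi208 GAAATCGAAA lies 58 bases before it. The starts used here are those of the promoter table and can differ from the gene coordinates given below. For Gbp2 those coordinates begin at 142620602, and by them the match lies just inside the gene. Of the wider gene lists described further on, counted by gene, the response element letters stood in 4 of 4 guanylate-binding protein genes with an entry, 5 of 6 immunity-related GTPase genes, 8 of 11 PYHIN genes, 21 of 47 type I-induced genes, 4 of 18 type II-induced genes, 11 of 20 interferon ligand genes and 4 of 15 genes of MHC class I and the immunoproteasome. They stood in 1 of 15 genes of interferon receptors and signalling, 1 of 10 of nucleic acid sensing, and 0 of 3 Ly6, 0 of 4 MHC class II and 0 of 12 NF-kB response genes. The gamma-activated site letters stood in 2 of 4 guanylate-binding protein genes, 4 of 6 immunity-related GTPase genes, 1 of 11 PYHIN genes, 8 of 47 type I-induced genes, 5 of 18 type II-induced genes and 10 of 20 ligand genes. In the other lists these letters stood in 1 of 15 MHC class I and immunoproteasome genes, 4 of 15 receptor and signalling genes, 2 of 10 nucleic acid sensing genes, 3 of 12 NF-kB response genes, 0 of 3 Ly6 genes and 0 of 4 MHC class II genes. Matches are described as letters and were not tested as binding sites.

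In the VEGF/LysM library 10323972 UMIs fell on 3807 barcodes, and in the WT library 8606348 UMIs fell on 6276. Both libraries shared 10 barcode sequences, 8 of them among retained cells. After filtering, 3541 VEGF/LysM and 5702 WT cells were endothelial, with medians of 2286 and 1156 UMIs. The genes described here were left out of the clustering. The largest class, called Plvap-high after the fenestral diaphragm gene Plvap, held 2022 VEGF/LysM and 4060 WT cells in 6 clusters. A capillary-like class (720 VEGF/LysM and 767 WT cells) was led by Car4, Timp4 and Cd36, an arterial-like class (246 and 246 cells) by Tspan8, Npnt and Lgr5, and a tip-like class (337 and 369 cells) by Apln, Kcne3 and Kcnj8. Smaller groups were cells with arterial and capillary markers (73 and 88 cells, led by Col8a1, Stmn2 and Fbln2), haemoglobin-carrying cells (52 and 72 cells) and cells with lymphatic and venous markers (53 and 64 cells). The capillary-like class made up 20.3% of VEGF/LysM and 13.5% of WT endothelial cells, and the Plvap-high class 57.1% and 71.2%. The marker Ptprc, which encodes CD45, had 0 UMIs in VEGF/LysM and 2 in WT endothelial cells. Vegfa had 0 UMIs in the 72 VEGF/LysM and the 80 WT myeloid-like cells that escaped the sort, so the VEGF/LysM label could not be checked on the gene it names. The 8 erythroid markers summed to 730 CPM (counts per 1000000 UMIs of the cells named) in VEGF/LysM and 451 CPM in WT endothelial cells, with 8 of 8 higher in VEGF/LysM and 0 and 2 of them at 0, but to 307 and 340 CPM in capillary-like cells and 96.5 and 84.2 CPM in Plvap-high cells. The 12 adrenocortical markers summed to 833 CPM in VEGF/LysM and 910 CPM in WT capillary-like cells, against 310.0 and 323 CPM in Plvap-high cells. The 14 T or NK markers summed to 17.3 CPM in VEGF/LysM and 23.5 CPM in WT endothelial cells, with 9 and 11 of them at 0. The part of these transcripts in the results was not tested.

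Cxcl9 encodes a chemokine that draws T cells and NK cells through the receptor Cxcr3, and Ubd encodes FAT10, a ubiquitin-like protein that marks proteins for the proteasome. In both libraries most of their transcripts lay in capillary-like cells, and both genes were at or near 0 in the Plvap-high, arterial-like and tip-like classes. Cxcl9 (ENSMUSG00000029417, chr5:92321347-92328079, GRCm38/mm10) reached 481 CPM (UMIs pooled over the class) in VEGF/LysM capillary-like cells (95% Poisson interval 448 to 517) and 373 CPM in WT capillary-like cells (334 to 415). In Plvap-high cells it stood at 1.36 CPM in VEGF/LysM (7 UMIs) and 0.946 CPM in WT (5 UMIs). Capillary-like cells thus held 354 times (171 to 882) the Plvap-high level in VEGF/LysM and 394 times (167 to 1221) in WT. They carried 84.4% of the Cxcl9 UMIs of VEGF/LysM endothelial cells and 84.1% of those of WT endothelial cells. Arterial-like cells had 2 Cxcl9 UMIs in VEGF/LysM and 1 in WT, and tip-like cells had 0 and 1.

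Cxcl9 was also found in groups whose markers include capillary genes. Haemoglobin-carrying cells, whose leading genes include the capillary gene Car4, had 396 CPM in VEGF/LysM (299 to 514) and 213 CPM in WT (134 to 323). Cells with arterial and capillary markers had 144 CPM in VEGF/LysM (94.96 to 210) and 167 CPM in WT (102 to 258). In both groups the intervals of the genotypes overlapped, and the ratio of VEGF/LysM to WT was 1.86 (1.12 to 3.19) in haemoglobin-carrying cells. An unnamed cluster of 37 VEGF/LysM and 22 WT cells, led by transcripts of predicted genes such as Gm26870 and Gm10801, had 761 CPM in VEGF/LysM and 387 CPM in WT. Cells with lymphatic and venous markers had 7 Cxcl9 UMIs in VEGF/LysM and 0 in WT. Ubd (ENSMUSG00000035186, chr17:37193892-37196095) was found in the same classes at fewer UMIs. Capillary-like cells had 72 Ubd UMIs in VEGF/LysM (44.8 CPM, 35.1 to 56.5) and 18 in WT (20.1 CPM, 11.9 to 31.8), and Plvap-high cells had 0 and 3. Ubd was at least 60.9-fold higher in capillary-like than in Plvap-high cells of VEGF/LysM, by the lower limit of the exact interval (76.8-fold with the 0 set to a floor of 3 UMIs), and 35.5-fold higher (10.4 to 188) in WT.

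**Figure D1:**
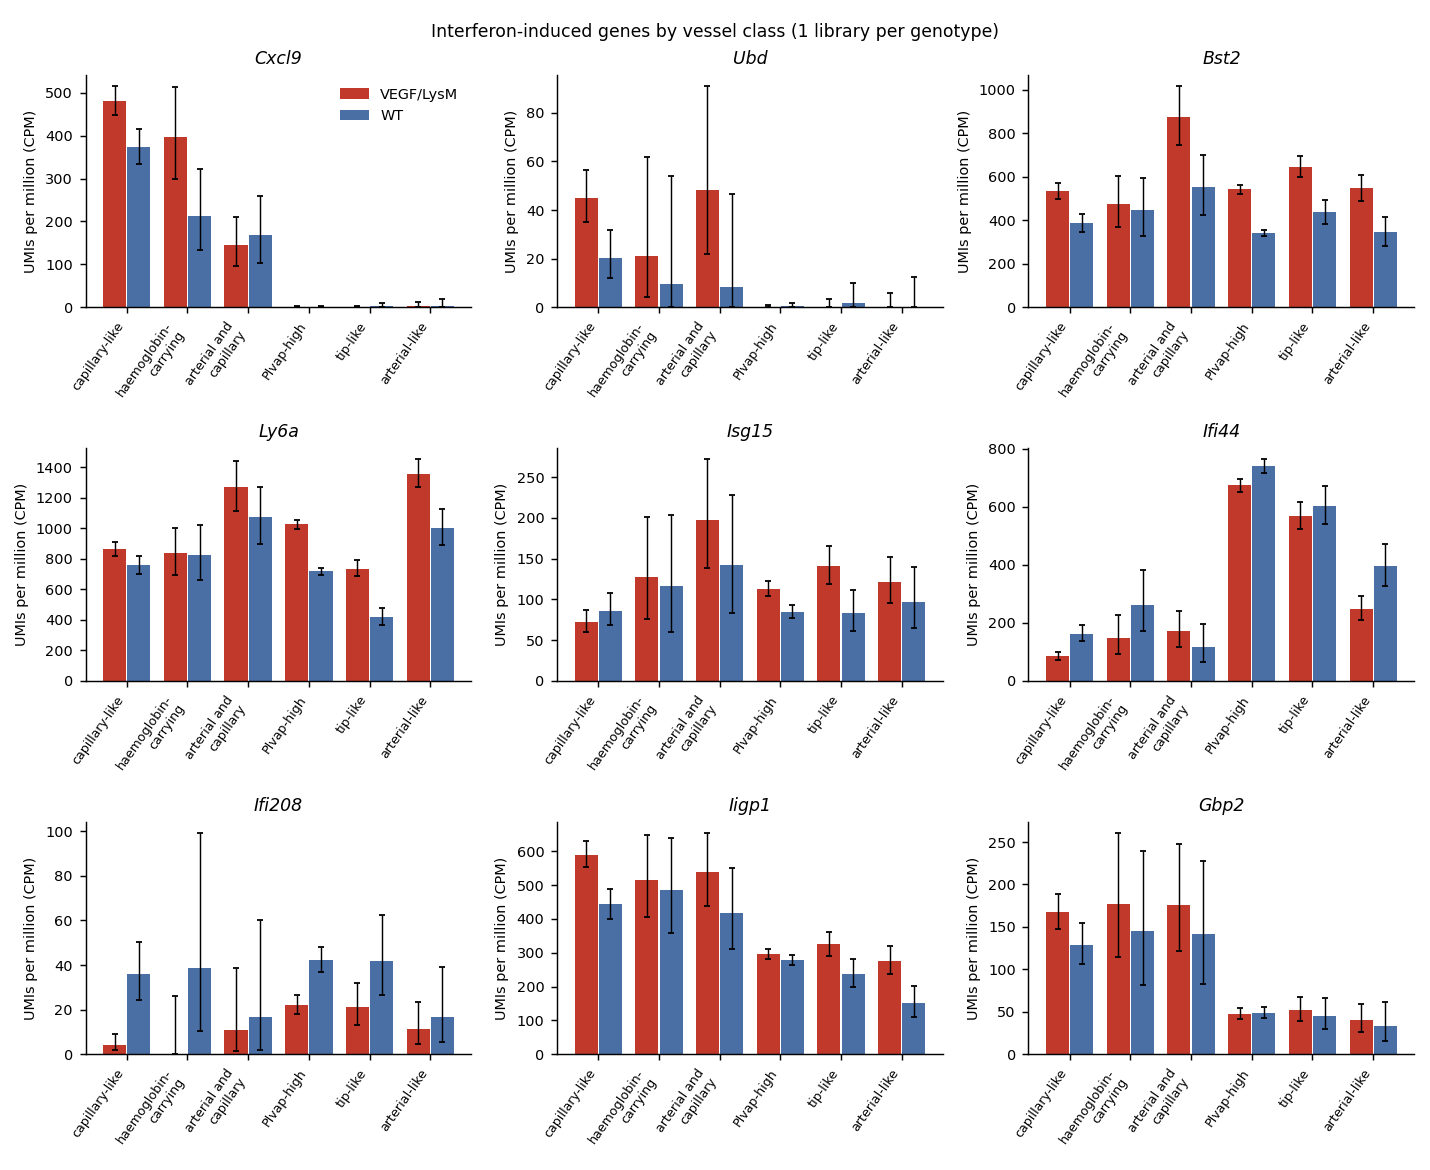
Pooled level of each of the 9 genes (CPM, linear axis from 0) in 6 vessel classes, VEGF/LysM in red beside WT in blue, with 95% Poisson intervals as whiskers. Cxcl9 and Ubd stand near 0 in Plvap-high, tip-like and arterial-like cells, Ifi44 is at 674 CPM in VEGF/LysM and 741 CPM in WT Plvap-high cells against 84.7 and 162 CPM in capillary-like cells, and Bst2 and Ly6a are present in every class shown.

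Within the capillary-like class Cxcl9 was unevenly spread. The top 10% of cells held 52.7% of its UMIs in VEGF/LysM and 54.4% in WT, and 397 of 720 VEGF/LysM cells and 538 of 767 WT cells had none. The highest cell had 33 UMIs in VEGF/LysM and 6 in WT. With every cell thinned to 1000 UMIs, which left 631 VEGF/LysM and 317 WT cells, Cxcl9 was detected in 31.9% (28.2 to 35.6) of VEGF/LysM and 28.1% (23.2 to 33.4) of WT capillary-like cells. Before thinning the shares were 44.9% and 29.9%, at medians of 1710 UMIs in VEGF/LysM and 896 in WT. The same share in thinned Plvap-high cells was none of 1892 VEGF/LysM cells (exact upper limit 0.195%, or 0.159% by 3 counts of the total) and 0.111% of 2704 WT cells, at unthinned medians of 2368 UMIs in VEGF/LysM and 1193 in WT. These limits concern cells with a UMI after thinning, and before it 6 of 2022 VEGF/LysM and 5 of 4060 WT Plvap-high cells had one. The capillary-like shares thus lay above the level seen in the larger class.

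Gbp2 and Iigp1 encode interferon-induced GTPases, Gbp2 a guanylate-binding protein and Iigp1 an immunity-related GTPase, both known for attacking the vacuoles of intracellular parasites. Both were higher in capillary-like than in Plvap-high cells in both libraries, and both were present in every vessel class described. Gbp2 (ENSMUSG00000028270, chr3:142620602-142638008, with the microRNA gene Mir6381 on the other strand) had 168 CPM (148 to 189) in VEGF/LysM and 129 CPM (106 to 154) in WT capillary-like cells, against 47.8 CPM (42.1 to 54.2) and 49.0 CPM (43.2 to 55.3) in Plvap-high cells. Capillary-like cells held 3.501 times (2.93 to 4.18) the Plvap-high level in VEGF/LysM and 2.63 times (2.09 to 3.28) in WT. Iigp1 (ENSMUSG00000054072) had 590 CPM (553 to 629) in VEGF/LysM and 443 CPM (400 to 489) in WT capillary-like cells, and 295 CPM (281 to 310) and 278 CPM (264 to 293) in Plvap-high cells. That is 2.00 times (1.84 to 2.17) in VEGF/LysM and 1.59 times (1.42 to 1.78) in WT. Both genes have close relatives (Gbp2b and Gm4951), and the handling of reads shared with these was not given in the sources used here.

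Ifi44, which encodes an interferon-induced protein of the cytoplasm, had the opposite distribution. Ifi44 (ENSMUSG00000028037, chr3:151730922-151749960) had 84.7 CPM (71.1 to 100) in VEGF/LysM and 162 CPM (137 to 191) in WT capillary-like cells, against 674 CPM (651 to 697) and 741 CPM (718 to 764) in Plvap-high cells. The capillary-like level was 0.126 times (0.105 to 0.149) the Plvap-high level in VEGF/LysM and 0.219 times (0.184 to 0.259) in WT. Plvap itself, after which the other class is named, was at 94.7 CPM in VEGF/LysM and 143 CPM in WT capillary-like cells, and its part in the Ifi44 counts there was not tested. Plvap does not mark that class alone. With both libraries pooled it was at 2347 CPM in cells with lymphatic and venous markers and 935 CPM in tip-like cells. Among the 6 Plvap-high clusters Ifi44 was highest in the cluster whose leading genes include Hmcn1, Npr3 and Esm1, with 912 CPM (861 to 965) in VEGF/LysM and 1060 CPM (994 to 1129) in WT, and spanned 537 to 780 CPM in VEGF/LysM and 563 to 889 CPM in WT over the other 5. Tip-like cells had 570 CPM (525 to 617) in VEGF/LysM and 603 CPM (540 to 672) in WT. Arterial-like cells had 248 CPM (211 to 291) in VEGF/LysM and 394 CPM (326 to 472) in WT.

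Bst2, Ly6a and Isg15 were detected in every vessel class described, at levels that differed between classes. Bst2 encodes tetherin, which holds budding enveloped viruses at the cell surface, Ly6a encodes the surface protein Sca-1, and Isg15 encodes a ubiquitin-like protein conjugated to others during the interferon response. Set against Plvap-high cells, capillary-like cells held 0.985 times (0.912 to 1.06) the Bst2 level in VEGF/LysM and 1.13 times (1.01 to 1.27) in WT. For Ly6a the figures were 0.841 (0.792 to 0.892) in VEGF/LysM and 1.05 (0.970 to 1.14) in WT, and for Isg15 0.640 (0.520 to 0.783) and 1.02 (0.791 to 1.303). Ly6a and Isg15 were thus lower in capillary-like cells of VEGF/LysM, with intervals below 1, while the WT intervals included 1. Whether the libraries differ in this was not tested. Ly6a (ENSMUSG00000075602, chr15:74994877-74998031) was at 1357 CPM (1267 to 1452) in VEGF/LysM and 1002 CPM (892 to 1122) in WT arterial-like cells, and at 1270 CPM (1114 to 1442) and 1070 CPM (893 to 1273) in cells with arterial and capillary markers. The intervals of these 2 groups overlapped within each library, and they were the highest Ly6a levels of the classes described. Isg15 (ENSMUSG00000035692, chr4:156199424-156200818) had its highest value of the classes described in cells with arterial and capillary markers, 197 CPM (139 to 272) in VEGF/LysM and 142 CPM (82.8 to 228) in WT, with intervals that overlapped those of arterial-like cells in both libraries. Bst2 (ENSMUSG00000046718, chr8:71534255-71537456) was also highest there, at 875 CPM (746 to 1020) in VEGF/LysM and 552 CPM (427 to 702) in WT. The lowest Isg15 level was that of cells with lymphatic and venous markers, with 4 UMIs in VEGF/LysM and 2 in WT, which is 0.26 times (0.071 to 0.669) and 0.31 times (0.038 to 1.14) the Plvap-high level. Bst2 was at 0.58 times (0.42 to 0.784) the Plvap-high level there in VEGF/LysM and 0.695 times (0.41 to 1.10) in WT.

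Counted over the 8 genes with at least 50 UMIs in both classes together, in each library, 3 were at least 1.5-fold higher in capillary-like cells in both libraries (Cxcl9, Iigp1 and Gbp2), beside 7.58% of all 9883 genes, and 1 was at least 1.5-fold lower (Ifi44), beside 13.5%. Ubd had too few UMIs for this count. The rule used these levels, so nothing is read from the counts. Ifi208, a gene of the PYHIN family of nucleic acid sensors and regulators (ENSMUSG00000066677, chr1:173673675-173698395), had 7 UMIs in VEGF/LysM and 32 in WT capillary-like cells, which is 0.197 times (0.0773 to 0.418) and 0.849 times (0.567 to 1.23) the Plvap-high level.

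Between genotypes, over all endothelial cells, 3 of the 9 genes were at least 1.5-fold higher in VEGF/LysM (Cxcl9, Ubd and Bst2), beside 3.11% of the 12287 genes measured, and 1 was at least 1.5-fold lower (Ifi208), beside 3.04%. The genes were chosen with this contrast in view, so nothing is read from those counts. Cxcl9 stood at 103 CPM (96.0 to 109) in VEGF/LysM and 53.6 CPM (48.4 to 59.1) in WT endothelial cells, a ratio of 1.91 (1.70 to 2.16). Within capillary-like cells the Cxcl9 ratio was 1.29 (1.13 to 1.47), under the 1.5-fold limit. Among classes of at least 100 cells per library, only capillary-like cells had 50 or more Cxcl9 UMIs. Giving each class the same weight in both libraries gave a log2 ratio of 0.37, which equals the capillary-like ratio of 1.29 and is no separate result. The log2 ratio over all endothelial cells was 0.94 with the classes as they occurred, and 1.53 with cells thinned to 1000 UMIs. Thinning drops cells under 1000 UMIs. It kept 631 of 720 VEGF/LysM and 317 of 767 WT capillary-like cells, and 1892 of 2022 and 2704 of 4060 Plvap-high cells. The value of 1.53 thus rests on other cells and another mix of classes, and is not a change of depth alone. The capillary-like class was 20.3% of VEGF/LysM and 13.5% of WT endothelial cells. Ubd had a ratio of 3.03 (1.91 to 4.98) over all endothelial cells and 2.23 (1.31 to 3.97) within capillary-like cells, from 72 VEGF/LysM and 18 WT UMIs.

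Within the Plvap-high class, which does not depend on the share of capillary-like cells, 7 of the 9 genes were measured. Of these, 1 (Bst2) was at least 1.5-fold higher in VEGF/LysM, beside 2.17% of 11122 genes, and 1 (Ifi208) was at least 1.5-fold lower, beside 2.88%. Bst2 had 543 CPM (523 to 563) in VEGF/LysM and 342 CPM (326 to 358) in WT, a ratio of 1.59 (1.497 to 1.69). The intervals did not overlap, and the ratio was between 1.34 and 1.91 in each of the 6 clusters of the class. Ly6a had 1025 CPM (997 to 1053) in VEGF/LysM and 718 CPM (695 to 741) in WT, a ratio of 1.43 (1.37 to 1.49), with 1.34 to 1.58 over the clusters. With cells thinned to 1000 UMIs Ly6a passed the limit too, at a log2 ratio of 0.67. Isg15 had 113 CPM (104 to 122) in VEGF/LysM and 84.4 CPM (76.7 to 92.6) in WT, a ratio of 1.34 (1.18 to 1.52), and its clusters ranged from 0.974 to 1.63. The genes measured in each of the 6 clusters were counted there too. In the cluster led by Cenpf, Ccnb2 and Tpx2, Bst2 and Isg15 were at least 1.5-fold higher in VEGF/LysM (beside 5.32% of genes) and no gene measured there was as much lower (beside 7.99%). In the cluster led by Ccl2 and Sele, Bst2 was higher (beside 3.44%) and Ifi208 lower (beside 4.36%). In the cluster led by Nlgn1 and Oit3 and that led by Gimap3 and Igfbp5, Bst2, Ly6a and Isg15 were all higher (beside 5.18% and 4.77%) and Ifi208 lower (beside 4.23% and 5.03%). In the cluster with Hmcn1 and Esm1 none was higher (beside 4.19%) and Ifi208 was lower (beside 3.63%), and in the cluster with Sdk1 only Isg15 was higher (beside 4.71%) and none lower (beside 4.41%).

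The other 4 genes measured in the Plvap-high class were lower in VEGF/LysM or had intervals that include 1. Ifi44 had a ratio of 0.909 (0.869 to 0.952). Ifi208 had 22.2 CPM (18.3 to 26.6) in VEGF/LysM and 42.2 CPM (36.8 to 48.1) in WT, a ratio of 0.526 (0.416 to 0.662), and it was lower in VEGF/LysM in all 6 clusters, at ratios of 0.189 to 0.779, of which the clusters at both ends of that range had under 50 UMIs. Iigp1 (1.06, 0.988 to 1.14) and Gbp2 (0.977, 0.817 to 1.17) had intervals that include 1. Ribosomal protein genes took 5.49% of Plvap-high UMIs in VEGF/LysM and 5.05% in WT, mitochondrial genes 1.72% and 1.60%, and Malat1 2.42% and 2.72%, and their part in these ratios was not tested.

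In capillary-like cells 8 of the 9 genes were measured, of which 1 (Ubd) was at least 1.5-fold higher in VEGF/LysM, beside 4.34% of 7283 genes, and 1 (Ifi44) at least 1.5-fold lower, beside 4.74%. Ifi44 had a ratio of 0.522 (0.410 to 0.664). Bst2 had 535 CPM (500 to 572) in VEGF/LysM and 387 CPM (347 to 430) in WT, a ratio of 1.38 (1.22 to 1.57). Iigp1 (1.33, 1.18 to 1.502) and Gbp2 (1.302, 1.04 to 1.63) had intervals above 1, but with cells thinned to 1000 UMIs Iigp1 had a log2 ratio of -0.02. For Ly6a the ratio was 1.14 (1.04 to 1.251), but as a mean over cells its log2 ratio was -0.01. Isg15 was at 0.838 (0.623 to 1.13), with an interval that includes 1. Ifi208, below 50 UMIs, had 4.36 CPM (1.75 to 8.98) in VEGF/LysM and 35.8 CPM (24.5 to 50.5) in WT, a ratio of 0.122 (0.0454 to 0.281).

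Bst2 was higher in VEGF/LysM in arterial-like and tip-like cells too. Arterial-like cells had 547 CPM (490 to 608) in VEGF/LysM and 344 CPM (281 to 417) in WT, a ratio of 1.59 (1.27 to 2.00), and tip-like cells 645 CPM (597 to 696) and 437 CPM (383 to 495), a ratio of 1.48 (1.27 to 1.72). In arterial-like cells Bst2 and Iigp1 were, of 5 measured, the 2 past 1.5-fold higher, beside 7.22% of genes, and Ifi44 the 1 past 1.5-fold lower, beside 5.74%. Iigp1 had 276 CPM (236 to 320) in VEGF/LysM and 150 CPM (110 to 201) in WT arterial-like cells. In tip-like cells Ly6a and Isg15 were, of 6 measured, the 2 past 1.5-fold higher, beside 5.04%, and 0 were past 1.5-fold lower, beside 4.13%. Ly6a had 734 CPM (683 to 788) in VEGF/LysM and 419 CPM (366 to 476) in WT tip-like cells, and Isg15 141 CPM (119 to 165) and 83.4 CPM (61.0 to 111). Groups under 100 cells in a library were left out of the counts past 1.5-fold. Among these, Bst2 was at 474 CPM (367 to 602) in VEGF/LysM and 446 CPM (327 to 595) in WT haemoglobin-carrying cells, and at 315 CPM (228 to 425) and 238 CPM (141 to 375) in cells with lymphatic and venous markers, with overlapping intervals in both groups.

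**Figure D2:**
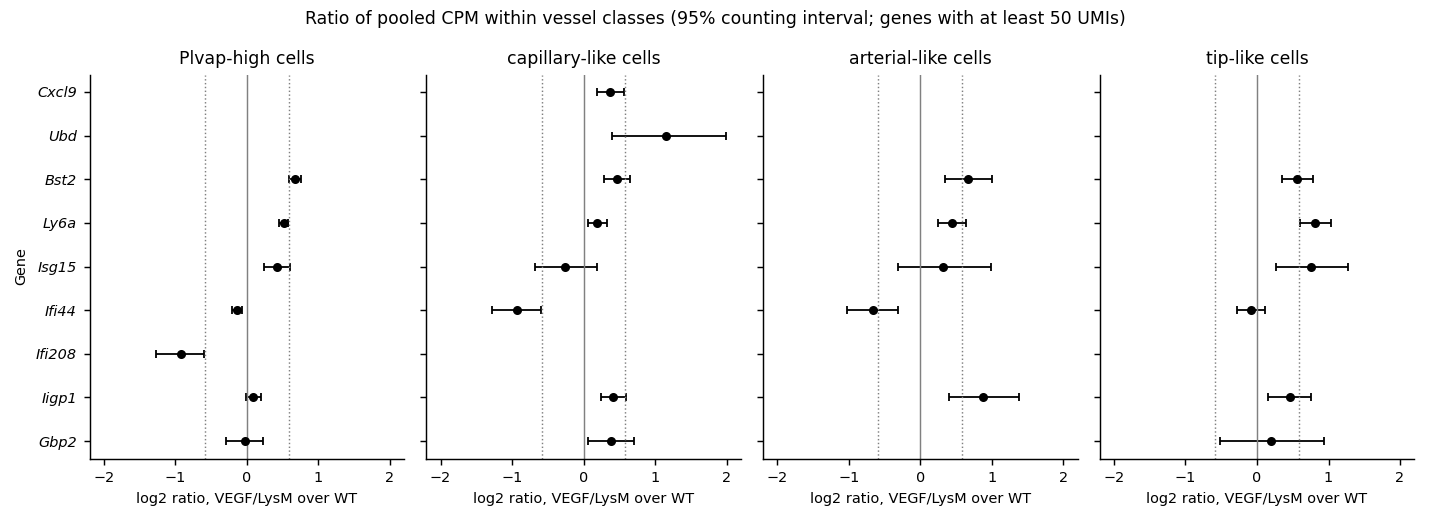
Log2 ratio of pooled CPM, VEGF/LysM over WT, for each gene with at least 50 UMIs in 4 vessel classes. Points are ratios, whiskers 95% exact conditional intervals of counting error, and dotted lines 1.5-fold either way. Bst2 lies to the right of 0 in all 4 classes, and Ifi44 lies to the left in all 4, with an interval that reaches 0 in tip-like cells.

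Whether the genes rise in the same cells was asked within a class and a library, with each cell thinned to 1000 UMIs, since deeper cells detect more of every gene. In Plvap-high cells (1892 VEGF/LysM and 2704 WT) 6 of the genes (Bst2, Ly6a, Isg15, Ifi44, Iigp1 and Gbp2) were paired. The 15 pairs were set beside all pairs of genes with detection in the same range. An odds ratio above 1, meaning that one gene was detected more often in cells with the other, was found in both libraries for 14 of the 15, beside 24.9% of 8018010 such gene pairs. An odds ratio of at least 1.2 in both libraries was found for 11 of the 15, beside 4.66%. The median odds ratio was 1.40 in VEGF/LysM and 1.51 in WT, where the median over all such pairs was 0.993 in VEGF/LysM and 0.995 in WT. Among the 15 pairs the exception to a value above 1 was Ly6a with Gbp2 in VEGF/LysM, at 0.989, against 1.57 in WT. Ifi208, detected in 46 VEGF/LysM and 118 WT cells, was not among the genes paired. Its odds ratios with Bst2 and Gbp2 were 0.942 and 0.919 in VEGF/LysM but 1.23 and 1.95 in WT. With Ly6a, Isg15, Ifi44 and Iigp1 they were above 1 in both libraries. The sharing of these genes was known when they were chosen, so the counts are a description.

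Of the 15 pairs, all 5 with Isg15 had odds ratios between 1.62 and 2.14 in both libraries. Ifi44 was detected in 62.1% (54.6 to 69.2) of the 182 VEGF/LysM Plvap-high cells with an Isg15 UMI and in 44.3% (41.9 to 46.7) of those without, and in 63.9% (56.6 to 70.7) and 45.8% (43.8 to 47.8) of WT cells. Iigp1 was detected in 29.7% (23.1 to 36.9) of VEGF/LysM cells with an Isg15 UMI and 18.2% (16.4 to 20.2) of those without, against 32.5% (25.9 to 39.6) and 19.1% (17.6 to 20.7) in WT. Ly6a was detected in 73.1% (66.0 to 79.4) of VEGF/LysM cells with an Isg15 UMI and 55.9% (53.5 to 58.3) without, and in 57.1% (49.7 to 64.2) and 45.1% (43.2 to 47.1) of WT cells. In none of these 3 pairs did the with and without intervals overlap, in either library. For Bst2 and Ifi44 the odds ratio was 1.32 in VEGF/LysM and 1.29 in WT. At least 4 of the 6 genes were detected in 7.82% (6.65 to 9.13) of VEGF/LysM and 4.14% (3.42 to 4.96) of WT Plvap-high cells, and all 6 in 2 VEGF/LysM and 5 WT cells. These shares also depend on how often each gene alone was detected, and the share expected from that was not computed. Their difference between libraries is thus no measure of sharing.

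**Figure D3:**
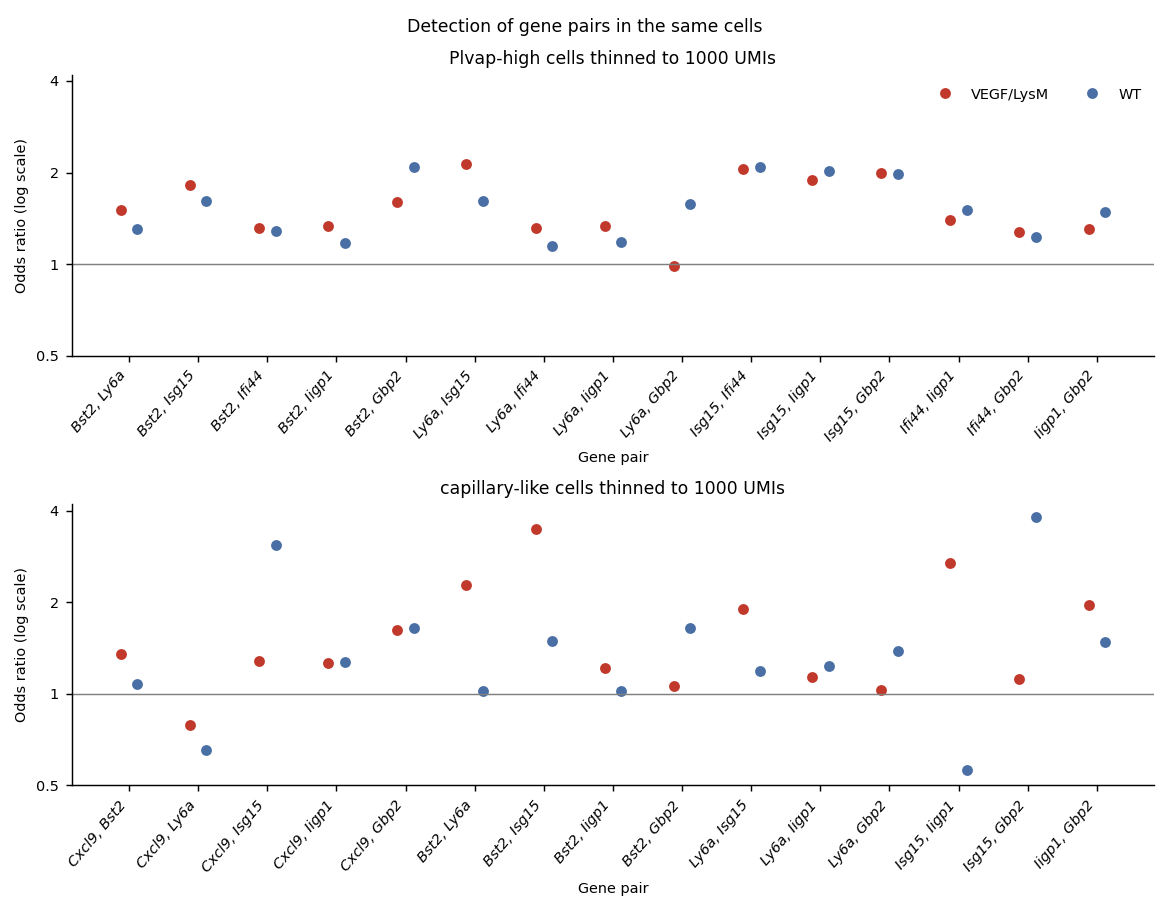
Odds ratio (log axis) for the detection of each of 15 gene pairs in the same cells thinned to 1000 UMIs, in Plvap-high cells (upper panel) and capillary-like cells (lower panel), VEGF/LysM in red and WT in blue. In Plvap-high cells 14 of 15 pairs lie above 1 in both libraries, with Isg15 and Ifi44 at 2.06 in VEGF/LysM and 2.09 in WT, and in capillary-like cells Cxcl9 and Ly6a lie below 1 in both.

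Pairs with Cxcl9 were counted in the capillary-like class, where it was detected. In 631 VEGF/LysM and 317 WT capillary-like cells, 13 of the 15 pairs of Cxcl9, Bst2, Ly6a, Isg15, Iigp1 and Gbp2 had an odds ratio above 1 in both libraries, beside 23.5% of pairs of similar detection, and 5 reached 1.2 in both, beside 10.6%. Those 5 were Cxcl9 with Isg15, Iigp1 and Gbp2, Bst2 with Isg15, and Gbp2 with Iigp1. Cxcl9 and Isg15 were detected together in 13 cells of each library. The pairs not above 1 in both were Cxcl9 with Ly6a and Isg15 with Iigp1. For Isg15 with Iigp1 the odds ratio was 2.70 in VEGF/LysM and 0.561 in WT, from few cells with an Isg15 UMI (35 and 25). Iigp1 was detected in 51.4% (34.0 to 68.6) of these in VEGF/LysM and 28.2% (24.6 to 32.0) of cells without. In WT the shares were 20.0% (6.83 to 40.7) and 30.8% (25.6 to 36.5), with overlapping intervals. For Cxcl9 with Ly6a the odds ratio was below 1, 0.792 in VEGF/LysM and 0.656 in WT. Ly6a was detected in 50.2% (43.1 to 57.4) of VEGF/LysM capillary-like cells with a Cxcl9 UMI and 56.0% (51.2 to 60.8) of those without, intervals that overlap. Gbp2 was detected in 16.9% (12.0 to 22.8) of VEGF/LysM cells with a Cxcl9 UMI and 11.2% (8.35 to 14.5) without, and in 16.9% (9.75 to 26.3) and 10.96% (7.22 to 15.8) of WT cells, again with overlapping intervals. Ubd was detected in 7.46% (4.24 to 12.0) of the 201 VEGF/LysM cells with a Cxcl9 UMI and 1.86% (0.807 to 3.63) of those without. None of the 89 WT cells with Cxcl9 had a Ubd UMI, and 4 of 317 WT cells had one at all, so the sharing of Ubd was not detectable at this depth in WT. Ifi44, detected in 46 VEGF/LysM and 44 WT capillary-like cells, was not among the genes paired in this class. Its odds ratio with Bst2 was 1.27 in VEGF/LysM and 0.620 in WT. With Cxcl9, Ly6a, Isg15, Iigp1 and Gbp2 it was above 1 in both libraries.

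Genes whose levels varied most like those of the interferon-induced genes over single Plvap-high cells were sought among 4939 genes by Pearson correlation of log-scaled UMIs. The values are descriptive, since cells share a library and differ in depth. For Isg15 the 5 highest were Ifit1 (0.33 in VEGF/LysM and 0.18 in WT), Ifit2, Ifit3, Ifitm3 and Cmpk2, all of them interferon-induced. With cells thinned, Ifit1, an RNA-binding inhibitor of viral translation, was detected in 25.3% (19.1 to 32.2) of VEGF/LysM cells with an Isg15 UMI and 7.49% (6.28 to 8.84) without, and in 21.5% (15.9 to 28.0) and 6.61% (5.67 to 7.65) of WT cells. For Ifi44, named here after the values were seen, the first 2 were Npr3 and Esm1, leading genes of the cluster where Ifi44 was highest (0.18 and 0.19 in VEGF/LysM, 0.14 and 0.14 in WT), followed by Ifit1, Ifit3 and Irf7. The lists for Bst2, Ly6a and Ifi208 likewise held genes outside the interferon lists, namely Rpl10 for Bst2, Tmsb4x for Ly6a, and Id2 and Znfx1 for Ifi208. The Ifi208 values were low, at 0.066 in VEGF/LysM and 0.064 in WT for Id2 and 0.075 and 0.056 for Znfx1. In counts as sparse as those of Ifi208 they are no finding. For Iigp1 the 5 were Ifit1 (0.26 in VEGF/LysM and 0.16 in WT), Oasl2, Ifit3, Ifit2 and Gm4951. For Gbp2 (Gbp4, Gbp9, Ly6c1, Trim30a and Slfn3) and for Cxcl9 (Sipa1l1, Cd36, Cntrl, Cacul1 and Eif3i) no correlation exceeded 0.11 in VEGF/LysM or 0.09 in WT, which in counts this sparse is no finding. A search in capillary-like cells was added after the values were seen and covered only 772 genes, so genes with few UMIs there could not appear. In it the highest correlation of Cxcl9 was with Aqp1, a water channel of endothelium, at 0.31 in VEGF/LysM and 0.19 in WT. Aqp1 was detected in 75.6% (69.1 to 81.4) of VEGF/LysM cells with a Cxcl9 UMI and 57.7% (52.8 to 62.4) of those without, and in 73.0% (62.6 to 81.9) and 59.6% (53.0 to 66.1) of WT cells, where the intervals overlap.

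The wider lists set the 9 genes beside other genes of their pathway, and none of the lists holds any of the 9. Their counts are thus without Cxcl9, Ubd and Bst2, which were past 1.5-fold higher over all endothelial cells, and Ifi208, which was past 1.5-fold lower. Over all endothelial cells 0 of 56 measured type I-induced genes were 1.5-fold higher and 0 lower in VEGF/LysM, beside the 3.11% and 3.04% of all genes, with a median log2 ratio of -0.01 beside -0.03 for all genes, and the most abundant were Rsad2, Ifitm3 and Slfn5. Rsad2, which encodes the antiviral enzyme viperin, had 1217 CPM (1194 to 1240) in VEGF/LysM and 1267 CPM (1241 to 1293) in WT, and Ifitm3, which blocks viral entry, 959 CPM (938 to 979) and 715 CPM (696 to 735), a ratio of 1.34. Of 22 type II-induced genes 0 were higher and 1 was lower, Cxcl10, another ligand of Cxcr3, at 8.95 CPM (7.10 to 11.1) in VEGF/LysM and 16.2 CPM (13.5 to 19.4) in WT. Cxcl9 and Cxcl10 thus had ratios on opposite sides of 1. Of 7 guanylate-binding protein genes 1 was higher (Gbp6, 65 UMIs in VEGF/LysM and 22 in WT), of 8 immunity-related GTPase genes 1 (Tgtp1), and of 9 PYHIN genes 1 (Aim2, a sensor of cytosolic DNA), with 0 lower in all 3 lists. Ifi208, also a PYHIN gene, is outside that list and was at least 1.5-fold lower. Gbp2 and Iigp1 are likewise outside the lists of their families.

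Antigen presentation genes are also induced by interferon. The counts of these and the remaining lists stand beside 3.11% of all genes higher and 3.04% lower, with a median log2 of -0.03. Of 16 measured genes of MHC class I and the immunoproteasome 2 were higher in VEGF/LysM, Psmb8 and Psmb9. All 16 had a ratio above 1 over all endothelial cells, with a median log2 of 0.30. Psmb8, a subunit of the immunoproteasome, had 219 CPM (210 to 229) in VEGF/LysM and 130 CPM (122 to 138) in WT. All 6 measured MHC class II genes were higher, with a median log2 of 1.41, among them Cd74, the chaperone of class II molecules, at 59.8 CPM (54.8 to 65.0) in VEGF/LysM and 13.1 CPM (10.6 to 16.01) in WT. Over the same cells the 16 myeloid markers summed to 256 CPM in VEGF/LysM and 262 CPM in WT, with 7 of 16 higher in VEGF/LysM and Ptprc at 0 and 2 UMIs, and their part in the class II ratios was not tested. In the NF-kB list 2 of 13 were lower, Sele (27 UMIs in VEGF/LysM and 39 in WT) and Cxcl1 (87 and 144 UMIs), and 0 were higher, with a median log2 of -0.40. Among 3 Ly6 genes, 15 genes of interferon receptors and signalling and 9 of nucleic acid sensing, 0 were past 1.5-fold either way, with median log2 ratios of 0.42, -0.05 and -0.08. Their most abundant genes were Ly6e, Ly6c1 and Gpihbp1, then Jak1, Irf2 and Stat3, then Samhd1, Tbk1 and Tlr4.

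Between classes, of 6 guanylate-binding protein genes 4 (Gbp3, Gbp4, Gbp5 and Gbp7) were at least 1.5-fold higher in capillary-like than in Plvap-high cells in both libraries and 0 were lower, beside 7.58% of all genes higher and 13.5% lower, and of 7 PYHIN genes 5 were lower and 0 higher. Gbp4 had 227 CPM in capillary-like and 84.0 CPM in Plvap-high cells of VEGF/LysM, and 177 and 86.1 CPM in those of WT. Of 53 type I-induced genes 4 were higher, a share near that of all genes, and 12 lower, the lower ones including Rsad2 (514 CPM in capillary-like and 1393 CPM in Plvap-high cells of VEGF/LysM, 634 and 1377 CPM in WT), and of 20 type II-induced genes 3 were higher and 7 lower. In the NF-kB list 6 of 11 were lower and 0 higher. The 2 subunits of the interferon-gamma receptor differed in direction. Ifngr1 had 296 CPM in capillary-like and 117 CPM in Plvap-high cells of VEGF/LysM, and 215 and 102 CPM in WT. Ifngr2 had 23.04 CPM in capillary-like and 82.3 CPM in Plvap-high cells of VEGF/LysM, and 34.7 and 92.1 CPM in WT.

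**Figure D4:**
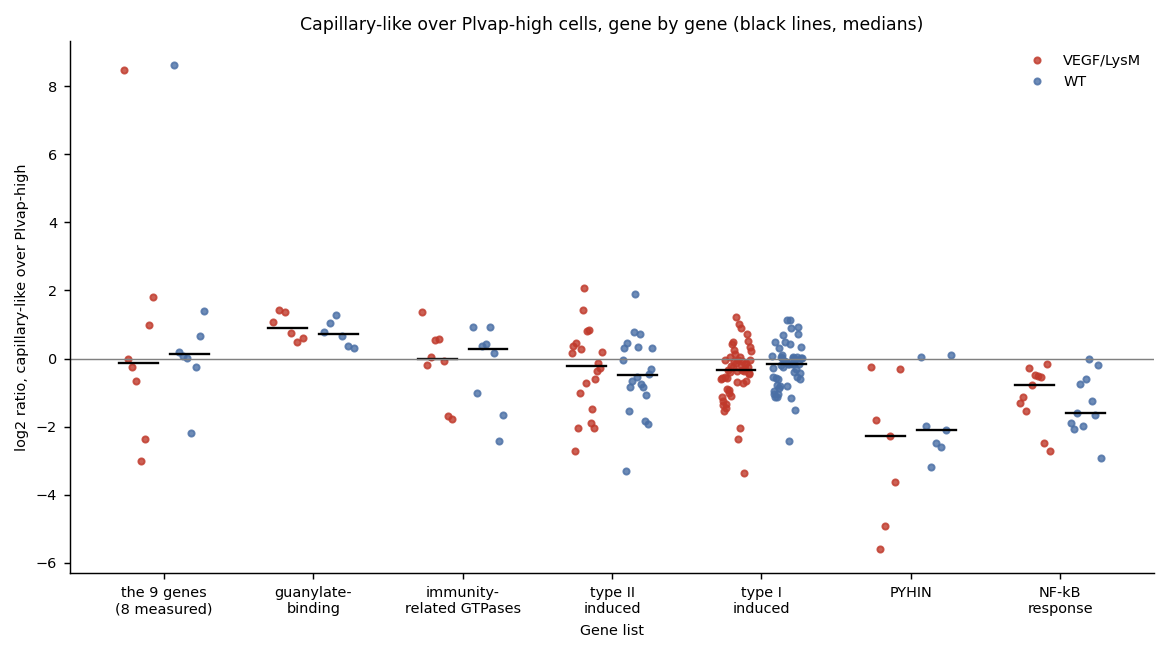
Log2 ratio of pooled CPM, capillary-like over Plvap-high cells, for the 8 measured genes and for each measured gene of 6 lists, VEGF/LysM in red left of WT in blue, with medians as black lines. Cxcl9 is the uppermost point of the first column, at 8.47 in VEGF/LysM and 8.62 in WT, and the 6 guanylate-binding protein genes all lie above 0 in both libraries.

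Of the interferon ligands, Ifng alone was detected among the retained cells, with 7 UMIs, all in the 19 T or NK-like cells of the VEGF/LysM library and 0 in the 11 of WT. Both groups are too small, after a sort against CD45, for a comparison. None of the listed ligands was detected in endothelial cells of either library.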

How the data were processed

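In 1 VEGF/LysM and 1 WT library, single-cell RNA sequencing counted UMIs per gene in sorted adrenal endothelial cells. The matrices that the authors deposited hold raw UMI counts, made with Cell Ranger 7.0.1 on mm10 per the submitters' processing notes (7.0.0 per the file headers). Those notes also name Seurat. Annotation release and intron counting were not given in the sources used here.

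Cells needed 500 UMIs, 300 genes and no more than 15% mitochondrial UMIs, and 116 VEGF/LysM and 315 WT barcodes were dropped as doublets (expected at 0.8% per 1000 barcodes). Leiden clustering at resolution 1 (scanpy 1.11.5, 2000 variable genes, 30 components) left out 150 interferon-induced and MHC genes. Classes were named from marker lists, and the naming limits were set after the clusters were seen, so class names are rebuilt and may differ from the study's. Levels are UMIs pooled over a class per 1000000, with exact Poisson intervals. Ratios have exact conditional binomial intervals and shares Clopper-Pearson intervals, all at 95% and for counting error only. Genes past 1.5-fold were counted among those with at least 50 UMIs over both libraries. With 1 library per genotype no test was made. The code was tested on simulated data.

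Named are the 9 genes, the genes of each list past 1.5-fold over all endothelial cells or else its 3 most abundant, and the 5 best correlates of Cxcl9, Iigp1, Gbp2 and Isg15 in Plvap-high cells. Genes named for class differences, the correlates of Ifi44, Bst2, Ly6a and Ifi208, the Cxcl9 correlate in capillary-like cells and the odds ratio limit of 1.2 were chosen after the values were seen. The genes and lists were chosen with earlier results of these data known. Of 231 listed genes, 4 symbols were not matched. The alternatives tried were other cell filters, doublet removal, thinning, scaling, weighting, folds, count minimums and clusterings.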

Additional observations from a re-analysis of the deposited data

How the results depend on the processing

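Of 82 planned recomputations of the counts of genes past a fold, of genes by class and of pairs, 74 stayed within 1.5 times the value reported and 8 did not. Over all endothelial cells the genes higher in VEGF/LysM numbered 5 at a log2 limit of 0.32 (beside 9.96% of all genes) and 1 at 2-fold (beside 0.635%), against 3 at 1.5-fold (beside 3.11%). In Plvap-high cells they numbered 2 with the stricter cell filter (beside 2.87%), 2 with cells thinned to 1000 UMIs (beside 3.45%), 3 at a log2 limit of 0.32 (beside 9.13%) and 0 at 2-fold (beside 0.252%), against 1 (beside 2.17%). Genes lower in VEGF/LysM there numbered 0 at 2-fold (beside 0.486%) and 2 with no minimum count (beside 21.1%), against 1 (beside 2.88%). The gene added by the stricter filter and by thinning was Ly6a, at log2 ratios of 0.61 and 0.67. The cause of these changes was not tested, apart from the changed limits themselves. Over all endothelial cells the Cxcl9 log2 ratio ranged from 0.37 to 1.53. The lowest value came with each class given the same weight in both libraries and is the capillary-like value. The highest came with thinning, which drops cells under 1000 UMIs. Within capillary-like cells, where the alternatives were added after the data were seen, the Cxcl9 log2 ratio ranged from 0.22 to 0.49. The log2 ratios of Ly6a (-0.01 to 0.34), Isg15 (-0.53 to 0.24) and Iigp1 (-0.02 to 0.49) fell on both sides of 0 there. In Plvap-high cells that of Gbp2 did so too (-0.10 to 0.02). Pairs above 1 in both libraries numbered 13 to 15. No paired analysis was possible because each genotype has 1 library. The WT library was shallower, with endothelial medians of 2286 UMIs in VEGF/LysM and 1156 in WT, and thinning kept 317 of its 767 capillary-like cells. Before thinning Ubd had 72 UMIs in VEGF/LysM and 18 in WT in that class, and Ifi208 7 and 32.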
